A study of Mus musculus with 6 samples.

Results

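DNA replication genes were followed in whole mammary glands of mice without caveolin-3, the caveola coat protein of muscle cells. The list held 49 genes named by their known roles in copying DNA, supplying its nucleotides and rebuilding chromatin behind the fork. It was chosen with earlier results of these data known, so the shares below describe the list and do not test it. Each gene was read by the probe set annotated to that symbol alone that had the highest mean over all arrays, and 48 of the 49 had one, out of 18193 genes measured that way. Chaf1a, the large subunit of the same histone chaperone as Chaf1b, had no probe set under its own symbol and was not analysed here.

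The study set 3 wild-type (WT) glands against 3 Caveolin-3 knockout (Cav-3KO) glands, on 1 array each. All came from untreated virgin females of 4 months in the FVB/N background, and the whole gland was extracted, so epithelium, fat, muscle and immune cells contribute to every value. How the knockout allele was made, the stage of the oestrous cycle at collection, and whether each gland came from its own mouse are not given in the sources used here. If glands shared mice, the p-values would measure only the spread between these samples. Values are log2 intensities, so a difference of 1 is a 2-fold change. All differences are knockout minus wild type.

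A cell that prepares to divide first licenses its origins of replication: the origin recognition complex, CDC6 and CDT1 load the ring-shaped MCM helicase onto DNA. In S phase the helicase is switched on together with CDC45 and the GINS complex, polymerases alpha, delta and epsilon copy both strands, and the sliding clamp PCNA holds them to the template. Most of these genes are transcribed late in G1 by E2F transcription factors once the RB protein lets them go. In the virgin mammary gland few cells divide at any moment, and the epithelium proliferates widely in pregnancy.

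The promoter sequences are shown because E2F sites are the best known element these genes share, and because the list was not chosen on sequence. RefSeq promoter windows (GRCm38.p6, 250 bases before to 50 bases after a transcript start) were available for 40 of the 48 measured genes. The motifs TTTCGCGC and TTTGGCGC, searched on both strands, were found in 11 of these 40 genes (27.5%), against 251 of 27025 genes with a window (0.929%) and 210 of 14452 measured genes (1.45%). Of the genes past the test threshold described below, 3 of 9 with a window held a match, and of the others 8 of 31. The 3 were Mcm6, Mcm5 and Mcm7, all subunits of the helicase ring, and their stretches read as follows, 5′ to 3′ on the gene's strand with the matches in capitals.
Mcm6: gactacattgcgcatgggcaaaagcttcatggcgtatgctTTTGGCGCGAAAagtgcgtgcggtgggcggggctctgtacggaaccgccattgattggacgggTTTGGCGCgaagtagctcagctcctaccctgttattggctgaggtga
Mcm5: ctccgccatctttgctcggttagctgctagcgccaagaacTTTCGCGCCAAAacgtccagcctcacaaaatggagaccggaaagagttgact
Mcm7: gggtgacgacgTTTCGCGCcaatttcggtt
The Mcm6 stretch is chr1:128359706-128359855 on the minus strand and ends 1 base before the start. The Mcm5 stretch is chr8:75109316-75109407 on the plus strand, 193 to 102 bases before the start. The Mcm7 stretch is chr5:138171849-138171878 on the minus strand, bases 6 to 35 after the start. Matches on opposite strands can share the bases GCGC, as in the first capital run of Mcm6 and in that of Mcm5, where the run is a match on each strand. The other 8 genes with a match were Cdt1, Lig1, Uhrf1, Pola1, Pole2, Mcm3, Orc1 and Rfc3. The CCAAT box, searched on both strands, was in 25 of the 40 genes (62.5%) and in 41.1% of all genes with a window, and it shared bases with an E2F match in 1 gene, Mcm7. A match is a description of letters and does not show that a factor binds there.

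Correlations over all probe sets were 0.990 to 0.995 within a genotype and 0.977 to 0.987 between genotypes. The 3 arrays per genotype limit the precision. Cav3 itself was read by 1 probe set, with log2 values of 4.79, 5.02 and 4.74 in the WT arrays and 4.76, 4.83 and 4.72 in the Cav-3KO arrays, here and below in replicate order (limma adjusted p = 0.679). Its groups overlapped, and whether the probe set lies in the removed part is not known, so it checks no label. For the replication genes one array stood apart: knockout 3 was above both other knockout arrays in 48 of 48 genes, by a median of 0.86 over knockout 1. The median of knockout 1 minus knockout 2 was 0.013. Knockout 1 was the higher of the pair in 25 of 48 genes, so differences of opposite sign cancel in that median. It does not give the size of the difference in single genes. Over all genes the median difference between knockout 3 and knockout 1 was 0.0069.

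Most replication genes had higher values in the knockout glands, and 10 of the 48 passed the limma threshold (adjusted p below 0.05 over all 45037 probe sets): Mcm2, Mcm5, Mcm6, Mcm7, Pole, Prim1, Rfc5, Rnaseh2a, Dna2 and Chaf1b. All 10 rose and 0 fell, that is 20.8% of the measured members, where 16.2% of all 18193 genes passed in either direction, 7.65% higher and 8.51% lower. The rises ran from 0.71 to 1.63 on the log2 scale. By sign 47 of the 48 lay above wild type, against 48.4% of all genes, and the median difference was 0.70, against −0.0091 over all genes. At an unadjusted p under 0.05, 33 members were higher (16.3% of all genes) and 0 lower, and 11 were at least 2-fold higher by their means (3% of all genes). The 3 knockout arrays lay above all 3 wild-type arrays for 32 members, 66.7%, compared with 18.5% of all genes, and below them for 0 (19.8% of all genes). For 22 of the 32 the adjusted p missed the threshold. Of these 22, 10 had adjusted p between 0.0504 and 0.0923, so the count depends closely on where the threshold stands.

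Many calls were lost when 1 array was left out, which also leaves fewer residual degrees of freedom for every gene. The counts below do not tell reliance on single arrays from that loss of precision. Without wild-type 2 or without wild-type 3, 0 of the 48 passed by limma (19 and 24 at an unadjusted p under 0.05), and all 10 lost their call, at adjusted p of 0.0612 to 0.137 and 0.0534 to 0.127. Without wild-type 1, 4 passed, and without knockout 1, 2 or 3 the counts were 11, 20 and 5. The all-gene totals of these refits are not given here, so no count is set against a share of all genes. The median difference was 0.39 without knockout 3 and 0.84 without knockout 1, and 0.65 to 0.83 without any of the other 4 arrays. With the mean of the skeletal muscle markers as a covariate, 2 members (Pole and Rfc5) passed and the median was 0.74, again without an all-gene total. With the mean of the luminal epithelial markers instead, 0 passed by limma, 0 had an unadjusted p under 0.05, and the median was 0.050.

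**Figure D1:**
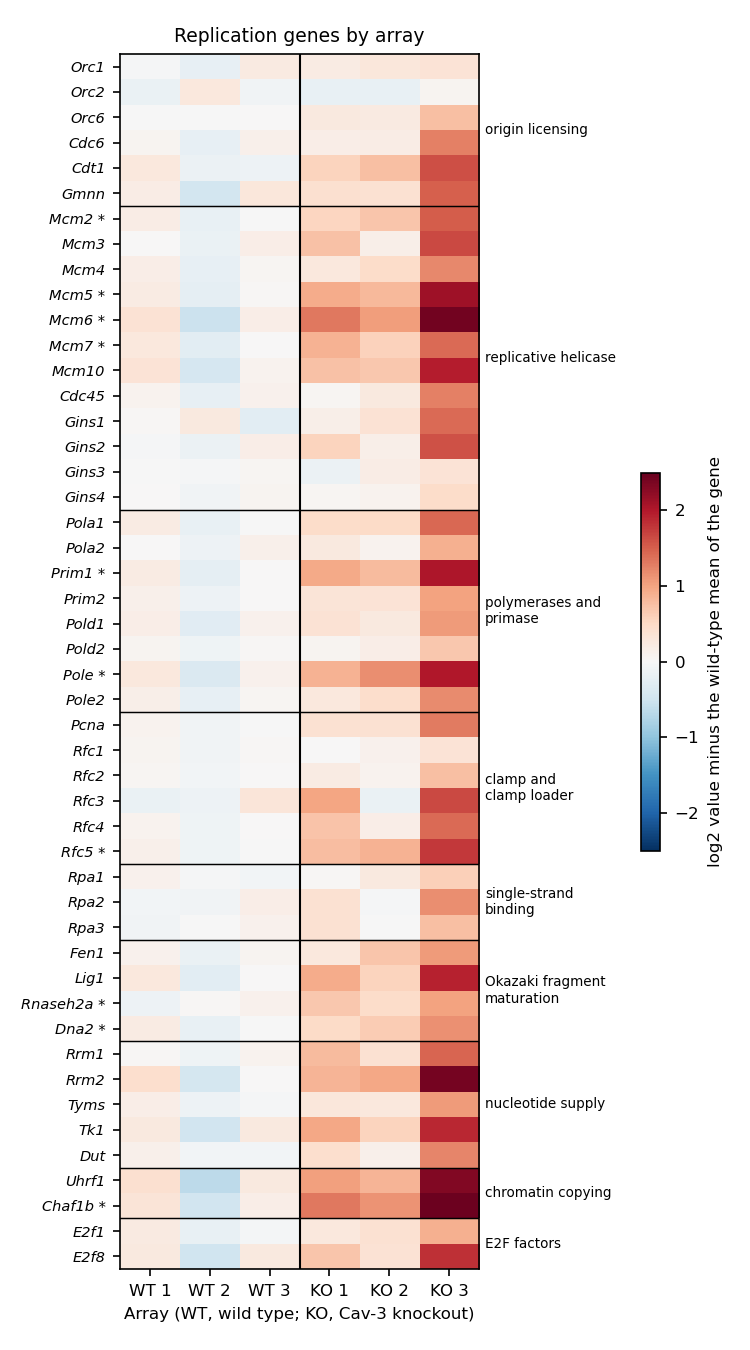
Heat map of the 48 measured replication genes (rows, grouped by role) in the 6 arrays (columns); colour is the log2 value minus the wild-type mean of that gene, and an asterisk marks an adjusted p below 0.05. Knockout 3 is the deepest red column, with a median of 1.28 above the wild-type mean, against 0.42 in knockout 1 and 0.38 in knockout 2, and Orc2 is the row with the only negative mean difference.

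Of 12 genes of the replicative helicase and its activators 4 rose and 0 fell, with a median difference of 0.80, and all 4 were subunits of the ring. Mcm6 (probe set 1416251_at) was at 9.12, 8.24 and 8.94 in WT and at 10.07, 9.81 and 11.17 in Cav-3KO. The groups did not overlap and knockout 3 was highest. The rise was 1.59 ± 0.36 (SE, n = 3 per genotype), 3.01-fold, at adjusted p = 0.0286, and leaving out WT array 2 or 3 or Cav-3KO array 3 ended the call (adjusted p = 0.0842, 0.0732 and 0.0539).

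Mcm5 (1436808_x_at), another ring subunit, read 9.14, 8.71 and 8.96 in wild type and 9.88, 9.75 and 11.06 in knockout. Knockout 1 and 2 lay close together, above every wild-type array. Mcm5 rose by 1.29 ± 0.32, 2.44-fold (adjusted p = 0.0382), and missed the threshold without any one of the 3 wild-type arrays (adjusted p = 0.0737, 0.114 and 0.105). Mcm7 (1438320_s_at) had values of 10.87, 10.33 and 10.60 in wild type and 11.46, 11.17 and 12.02 in knockout. Its lowest knockout value exceeded its highest wild-type value by 0.30. Its rise of 0.95 ± 0.22 (adjusted p = 0.0317) ended with WT array 2 or 3, or Cav-3KO array 1 or 3, left out (0.0976, 0.0941, 0.0641 and 0.0721). Mcm2 (1434079_s_at) was at 8.38, 8.01 and 8.18 in wild type and at 8.72, 8.88 and 9.70 in knockout. Here knockout 2 was above knockout 1. The rise was 0.91 ± 0.24 (adjusted p = 0.0479), and it was lost without any wild-type array (0.0804, 0.137 and 0.127) and without knockout 3 (0.0555).

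The 2 other ring subunits did not pass. Mcm3 differed by 0.84 ± 0.33 (adjusted p = 0.141) and its groups overlapped by less than 0.01, while Mcm4 differed by 0.64 ± 0.23 (adjusted p = 0.120) and its groups did not overlap. A second Mcm4 probe set did pass, at 0.55 ± 0.13 (adjusted p = 0.0358). Other Mcm3 sets differed by 0.96, 0.76 and 0.44 without overlap and by −0.011 with overlap, and none passed. Mcm10, which helps to switch the helicase on, differed by 1.13 ± 0.35 (adjusted p = 0.0765). Cdc45 and the 4 GINS genes are the partners that turn the ring into an active helicase. By their chosen sets they had differences of 0.12 (Gins3) to 0.77 (Gins2), adjusted p between 0.165 and 0.610, and overlapping groups in all 5. A second Gins2 set differed by 1.05 ± 0.34 without overlap (adjusted p = 0.0869). Second sets of Gins1, Gins3 and Cdc45 differed by 0.44, 0.13 and 0.03 with overlap.

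Origin licensing genes gave no call: of 6, 0 rose and 0 fell by limma, although 3 had an unadjusted p under 0.05, with a median difference of 0.47. Cdt1, the loader that brings MCM rings to origins, came closest. It read 9.16, 8.76 and 8.78 in wild type and 9.45, 9.65 and 10.51 in knockout, with no overlap, a difference of 0.97 ± 0.26 and an adjusted p of 0.0504. Gmnn, whose product geminin blocks CDT1 after licensing, differed by 0.77 ± 0.32, and Cdc6, which works beside CDT1, by 0.54 ± 0.28 (adjusted p = 0.168 and 0.260).

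No listed subunit of the origin recognition complex passed by its chosen probe set. Orc6 differed by 0.40 ± 0.15 without overlap and Orc1 by 0.28 ± 0.12 with overlap (adjusted p = 0.119 and 0.188). A second, dimmer Orc1 probe set differed by 0.51 ± 0.22 (adjusted p = 0.171). Orc2 was the single member below wild type, at 6.88, 7.31 and 6.95 in wild type and 6.85, 6.86 and 7.11 in knockout. Its groups overlapped, the difference was −0.11 ± 0.14 (adjusted p = 0.686), and without wild-type 2 it was 0.026. The 2 dimmer Orc2 probe sets gave −0.06 and −0.53, and the latter passed the threshold (adjusted p = 0.0213), the 1 call in the lower direction among the 104 probe sets of the list.

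Among the polymerases and primase 2 of 8 genes rose and 0 fell, with a median of 0.59. Pole (1448650_a_at), the catalytic subunit of the leading-strand polymerase epsilon, was at 6.35, 5.72 and 6.20 in wild type and at 6.97, 7.26 and 8.08 in knockout. The knockout values were all higher, with knockout 1 lowest. Pole rose by 1.35 ± 0.29, 2.54-fold (adjusted p = 0.0226), and lost its call without wild-type 2 or wild-type 3 (0.0700 and 0.0643). Prim1 (1449061_a_at), the catalytic primase subunit that starts each new strand with RNA, read 7.24, 6.81 and 7.04 in wild type and 7.99, 7.82 and 9.05 in knockout. Again knockout 3 stood above the other arrays. It rose by 1.25 ± 0.30, 2.39-fold (adjusted p = 0.0335), and lost the call without any 1 wild-type array (0.0648, 0.103 and 0.0966).

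The other polymerase and primase genes had smaller differences that missed the threshold. These were 0.55 for Prim2, the other primase subunit, and 0.80 for Pola1 and 0.41 for Pola2 of polymerase alpha. Pold1 and Pold2 of polymerase delta had 0.55 and 0.31, and Pole2 of polymerase epsilon had 0.63. Across all these genes adjusted p ran from 0.0846 for Pola1 to 0.265 for Pold2. Pold2 was the one whose lowest knockout and highest wild-type values coincided to 2 decimals.

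In the clamp and its loader 1 of 6 genes rose and 0 fell, with a median of 0.73. Rfc5 (1452917_at), a small subunit of the RFC loader that opens the PCNA ring, had values of 7.85, 7.61 and 7.71 in wild type and 8.48, 8.59 and 9.48 in knockout. The gap between the groups was 0.64. Rfc5 rose by 1.13 ± 0.24, 2.19-fold (adjusted p = 0.0236), and lost the call without any 1 wild-type array (0.0559, 0.0749 and 0.0764). Pcna, the clamp itself and a common marker of S phase, differed by 0.69 ± 0.24 without overlap (adjusted p = 0.10). The loader's large subunit Rfc1 differed by 0.15 ± 0.11, whereas Rfc2, Rfc3 and Rfc4 differed by 0.35, 0.82 and 0.77, with adjusted p of 0.114 to 0.236. For Rfc3 knockout 2 was the lowest of the 6 arrays, while knockout 1 and 3 lay at 7.17 and 7.81.

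The 3 subunits of RPA, which coats the unwound single strands, gave 0 calls in either direction and 0 at an unadjusted p under 0.05. Rpa3 had the smallest p of them. It read 6.91, 6.99 and 7.10 in wild type and 7.38, 6.99 and 7.75 in knockout, and knockout 2 fell inside the wild-type range (difference 0.38 ± 0.18, adjusted p = 0.223). Rpa1 and Rpa2 differed by 0.29 and 0.51, also with overlapping groups.

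Lagging-strand DNA is made as Okazaki fragments that must be trimmed and joined, and 2 of 4 such genes rose and 0 fell. Rnaseh2a (1452725_a_at), the catalytic subunit of the RNase that cuts RNA from RNA-DNA hybrids, was at 7.35, 7.51 and 7.60 in wild type and at 8.16, 7.94 and 8.50 in knockout. Wild-type 1, not wild-type 2, was lowest here. The rise of 0.71 ± 0.15 had the smallest adjusted p of the list, 0.0219, and was lost without any 1 wild-type array (0.0723, 0.0612 and 0.0534) or knockout 3 (0.0543). Dna2 (1452210_at), a nuclease and helicase that trims long flaps, read 6.85, 6.46 and 6.64 in wild type and 7.13, 7.28 and 7.80 in knockout. All 3 knockout arrays were higher. It rose by 0.75 ± 0.18 (adjusted p = 0.0359), a call lost without any 1 wild-type array (0.0542, 0.110 and 0.104) or knockout 3 (0.0737). Lig1, the ligase that seals the fragments, and Fen1, the flap nuclease, differed by 1.13 ± 0.32 and 0.67 ± 0.19 (adjusted p = 0.0585 and 0.0590), and neither overlapped. A second Fen1 probe set passed, at 1.10 ± 0.24 (adjusted p = 0.0247).

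The 5 nucleotide supply genes had a median of 0.88, and 0 passed by limma, although all 5 had an unadjusted p under 0.05. Rrm1, the large subunit of ribonucleotide reductase, which turns ribonucleotides into deoxyribonucleotides, read 7.77, 7.64 and 7.82 in wild type and 8.54, 8.13 and 9.20 in knockout. No knockout array overlapped the wild type, and the difference was 0.88 ± 0.24 (adjusted p = 0.0521). Rrm2, the S-phase subunit of the same enzyme, differed by 1.40 ± 0.40 (adjusted p = 0.0596). Tk1, the thymidine kinase of dividing cells, differed by 1.14 ± 0.34 (adjusted p = 0.0688), thymidylate synthase Tyms by 0.54 ± 0.21 and the dUTPase gene Dut by 0.59 ± 0.25 (adjusted p = 0.143 and 0.170).

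Of the 2 measured chromatin copying genes 1 rose. Chaf1b (1423877_at), a subunit of the chaperone that places histones on new DNA, had values of 6.36, 5.55 and 6.20 in wild type and 7.36, 7.16 and 8.50 in knockout. It had the widest gap between groups in the list, 0.80, and the largest rise, 1.63 ± 0.35, 3.10-fold (adjusted p = 0.0242). The call was lost without wild-type 2 or wild-type 3 (0.0741 and 0.0655). Uhrf1, which guides maintenance methylation to newly copied DNA, differed by 1.39 ± 0.41 without overlap (adjusted p = 0.0656).

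Neither E2F factor passed, and both had an unadjusted p under 0.05. E2f1, an activator of this gene group, was at 6.58, 6.18 and 6.30 in wild type and at 6.62, 6.74 and 7.24 in knockout. The groups were separated by 0.046 (difference 0.52 ± 0.18, adjusted p = 0.102). E2f8, a repressor that is itself made in S phase, differed by 0.96 ± 0.37 (adjusted p = 0.135).

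**Figure D2:**
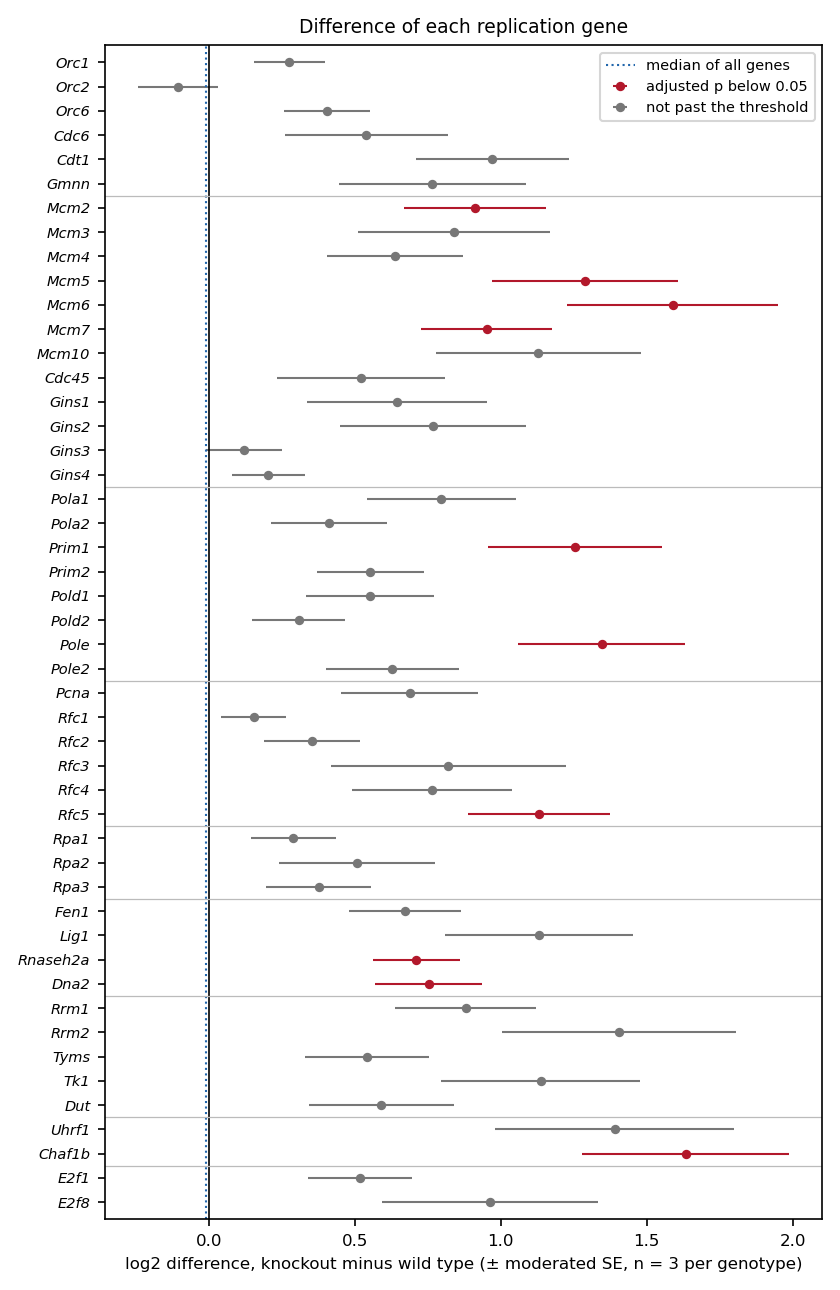
Log2 difference (knockout minus wild type) of each of the 48 genes with its moderated standard error, in the order of the roles described; red marks an adjusted p below 0.05 and grey the rest. The red points lie between 0.71 and 1.63, and 5 grey points (Mcm10, Lig1, Rrm2, Tk1 and Uhrf1) lie at or above 1.

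Probe sets of one gene mostly pointed the same way. The 48 genes had 104 probe sets, of which 95 lay above 0 by sign, 17 passed as higher and 1 as lower, against 5.74% of all probe sets passing as higher. Of the 10 genes that rose, 7 had another probe set and for 5 of them (Mcm2, Mcm5, Mcm6, Mcm7 and Dna2) another set also passed. A second Chaf1b set lay at −0.073 ± 0.11, and a further Dna2 set at −0.036. The 6 rising genes Mcm2, Mcm5, Mcm7, Pole, Prim1 and Rnaseh2a rest on sets whose name marks them as able to match several transcripts. Without such sets 5 members passed (Chaf1b, Dna2, Mcm2, Mcm6 and Rfc5). Mcm7, Pole and Rnaseh2a had no other kind of set and were not tested there, while Mcm5 and Prim1 were tested and missed the threshold. By its brightest probe set no member lay in the range of 9 Y-linked probe sets, which stand for background in these females (means of 2.04 to 3.25). Choosing the brightest set favours that outcome. Some sets that were not chosen lay in the range, such as an Rrm1 set at 2.22 and a Cdt1 set at 2.69. The lowest mean of a chosen set was 4.90, for Tyms.

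The highest and lowest arrays were mostly the same across the list. Knockout 3 was the highest of all 6 arrays for 47 of 48 genes (20.2% of all genes) and wild-type 2 the lowest for 40 (19% of all genes). Knockout 1 lay above knockout 2 in 25 of 48, with no common order of the pair. Knockout 1 lay above every wild-type array in 39 genes, knockout 2 in 40 and knockout 3 in 47. Over all 18193 genes the counts were 6060, 6220 and 6423. The spread was larger in the knockout group than in the wild type for 46 of the 48, against 59.7% of all genes, with median SDs of 0.55 and 0.19. The 48 genes averaged 7.49, 7.19 and 7.44 in the WT arrays and 7.87, 7.79 and 8.70 in the Cav-3KO arrays.

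Other genes of the pathway were counted from lists of related genes, to be read against the 7.65% of all genes that rose and the 8.51% that fell. Both shares belong to the first fit of all 6 arrays, not to the refits given below. Of 26 other initiation and fork genes 4 rose and 1 fell, with a median of 0.43. Pold3, an accessory subunit of polymerase delta, rose by 0.90 ± 0.20, and Exo1, an exonuclease, by 1.75 ± 0.42. Dbf4, the activator of the CDC7 kinase that fires origins, rose by 1.18 ± 0.28, and Rif1, which restrains origin firing, by 0.49 ± 0.11 (adjusted p = 0.0261 to 0.0332 for the 4). The 1 that fell, singled out for its direction, was the origin recognition gene Orc3, at 9.28, 9.49 and 9.35 in wild type and 9.03, 8.99 and 9.03 in knockout (−0.35 ± 0.09, adjusted p = 0.0415), and it missed the threshold without any 1 of the 6 arrays. Without wild-type 1, 2 or 3, 1, 0 and 0 of the list rose, and without knockout 2 or 3, 9 and 2.

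Of 13 replication checkpoint genes 1 rose (7.69%, close to the 7.65% of all genes) and 0 fell, with a median of 0.21. Chek1, the kinase that halts division when forks stall, read 4.54, 4.35 and 4.68 in wild type and 5.40, 5.79 and 6.70 in knockout, all 3 higher. It rose by 1.44 ± 0.29, adjusted p = 0.0202, and missed the threshold without any 1 wild-type array (0.0580, 0.0660 and 0.0559).

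Of 29 measured other nucleotide synthesis genes 5 rose and 0 fell, with a median of 0.15. These were Prps2, which makes the ribose phosphate precursor (0.62 ± 0.12), Shmt1, which feeds folate units to thymidylate (0.95 ± 0.20), Ctps, the CTP synthetase listed as Ctps1 (0.71 ± 0.17), Dctd, the dCMP deaminase (1.02 ± 0.25), and, outside the 4 smallest p, Cad, which starts pyrimidine synthesis (0.52 ± 0.13). Without wild-type 1, 2 or 3, 1, 1 and 0 of them rose, and without knockout 3, 2.

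Among 10 measured other chromatin copying genes 4 rose and 0 fell, with a median of 0.53. Cdca7, a partner of the remodeller HELLS, was at 8.07, 7.92 and 8.06 in wild type and at 8.83, 8.77 and 9.37 in knockout. Its rise of 0.97 ± 0.16 (adjusted p = 0.00968) stayed past the threshold without each of the 6 arrays (adjusted p of at most 0.0363). Nasp, a histone chaperone, rose by 1.02 ± 0.19, Dnmt1, the maintenance methyltransferase, by 0.77 ± 0.18 and Hells by 1.36 ± 0.36. Without wild-type 1, 2 or 3, 2, 1 and 1 of the list rose.

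Of 24 other E2F and RB pathway genes 2 rose and 1 fell, with a median of 0.26. These shares, 8.33% and 4.17%, compare with 7.65% higher and 8.51% lower over all genes, so the counts do not set the list apart. Cdkn1b, the CDK inhibitor p27, read 7.43, 7.24 and 7.45 in wild type and 8.18, 7.85 and 7.98 in knockout, and rose by 0.63 ± 0.11 at adjusted p = 0.0136, with 0.0505 when Cav-3KO array 3 was left out. The gain of E2f3, an activating E2F, was 0.59 ± 0.11 at adjusted p = 0.0160, with 0.0602 when WT array 3 was left out. Cdkn1a, the CDK inhibitor p21, lay lower in every knockout array, with 9.64, 9.82 and 9.09 in wild type and 8.51, 8.88 and 8.24 in knockout. It fell by 0.98 ± 0.22 (adjusted p = 0.0268), a call that ended with WT array 1 or 2, or Cav-3KO array 1 or 3, left out (0.0830, 0.0811, 0.0680 and 0.0940). Both inhibitors can hold cells out of S phase, and they moved in opposite directions.

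Mitosis genes were also above wild type by sign. Of 14 measured, 2 rose (Mki67 by 1.76 ± 0.45 and Cdk1 by 1.84 ± 0.49, adjusted p = 0.0425 and 0.0489) and 0 fell, with a median of 1.52. The share that rose was 14.3%, against 7.65% of all genes. By sign 14 of 14 lay above wild type (48.4% of all genes), and 6 of 14, 42.9%, had all knockout arrays above all wild-type arrays (18.5% of all genes). The median of knockout 1 minus knockout 2 was 1.15 in the mitosis list and 0.013 in the replication list, where the sign varied between genes. Knockout 2 was the lowest knockout array in 14 of 14 mitosis genes, in 25 of 48 replication genes and in 6949 of all 18193 genes. Knockout 2 lay above every wild-type array in 6 of 14 mitosis genes, in 40 of 48 replication genes and in 6220 of all 18193 genes. The difference between the lists was not tested. The number of mitosis genes that rose was 13 without knockout 2 and 0 without any other single array. It was 12 with array weights, 4 of 13 with dim probe sets left out, 1 with quantile normalization repeated, and 0 with the trended and robust prior or with either marker covariate.

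**Figure D3:**
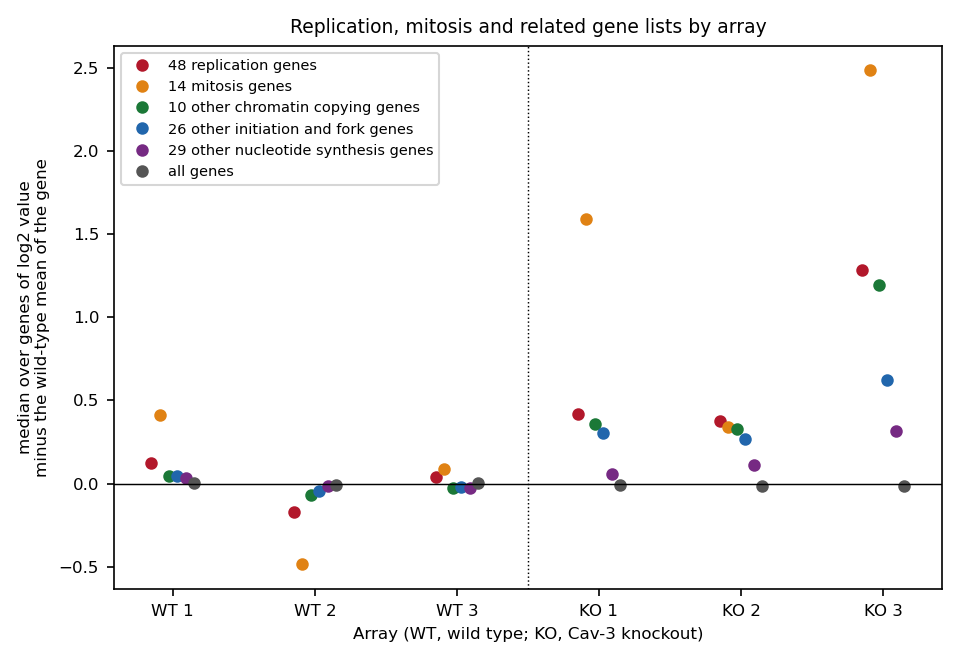
For each of the 6 arrays (x axis), the median over the genes of a list of the log2 value minus the gene's wild-type mean (y axis); colours mark the lists and grey all genes. In knockout 2 the replication median (0.38) and the mitosis median (0.34) lie close together, while in knockout 1 they are 0.42 and 1.59 and in knockout 3 they are 1.28 and 2.49.

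Markers of tissue make-up moved with the genotype beside these genes. In whole tissue, more cells of a type and more RNA per cell cannot be told apart. Over all genes 7.65% rose and 8.51% fell. Of 11 measured luminal epithelial markers 8 rose and 1 fell, and the list mean was 8.97 to 9.48 in wild type and 10.12 to 10.35 in knockout. Of 8 basal markers 7 rose and 0 fell (8.64 to 8.78 against 9.51 to 9.65). The white adipocyte list ran from 11.57 to 11.83 in wild type and from 10.85 to 11.25 in knockout, with 4 of 7 lower. For B and plasma cells the means were 9.09 to 9.22 and 8.54 to 8.76 (4 of 5 lower), and for T cells 7.16 to 7.59 and 6.77 to 6.92 (3 of 6 lower). Skeletal muscle markers overlapped, at 5.76 to 9.33 and 5.33 to 7.55, with 0 of 10 past the threshold, as did macrophage (9.76 to 10.01 and 9.77 to 10.03), endothelial (8.47 to 8.66 and 8.35 to 8.64) and fibroblast lists (11.97 to 12.39 and 12.04 to 12.60). By its brightest probe set no marker in any of the 9 lists lay in the Y-linked background range, an outcome that this choice of set favours.

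Subtracting the luminal mean from the replication mean left −1.99, −1.78 and −1.78 in the WT arrays and −2.48, −2.33 and −1.57 in the Cav-3KO arrays. Relative to luminal markers, knockout 1 and 2 were thus below every wild-type array and knockout 3 above every one. The luminal list separated the genotypes without overlap, and with its mean as a covariate 0 of 18193 genes passed by limma and the SEs of the 10 genes that had risen widened to between 0.52 and 1.05. Of these 10, Mcm6 and Mcm7 stood below 0, at −0.21 and −0.25, and the other 8 stayed above 0, from 0.0023 for Chaf1b to 0.75 for Rnaseh2a. In these 6 arrays a genotype difference and a difference in luminal marker level therefore cannot be told apart for the replication genes.

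**Figure D4:**
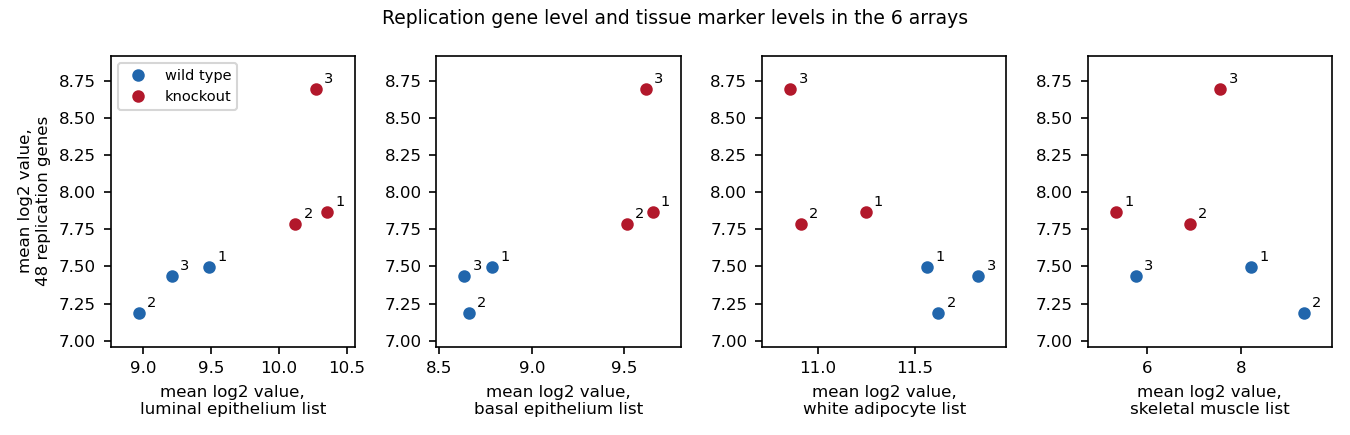
Mean log2 value of the 48 replication genes (y axis) against the mean of 4 tissue marker lists (x axes) in the 6 arrays; blue is wild type, red is knockout and the digit is the replicate. The genotypes separate along the luminal, basal and adipocyte axes and overlap along the muscle axis, and knockout 3 is at 8.70 on the y axis with luminal and basal means close to those of knockout 1 and 2.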

How the data were processed

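Messenger RNA of 6 whole mammary glands (3 wild type, 3 Cav-3KO, grouped by title) was read on 1-colour Affymetrix arrays. The deposited values are log2 intensities, 1 per probe set and array, and per the submitters' processing notes the authors used RMA; version and genome build are not given in the sources used here. RMA quantile normalizes, so a shift of most transcripts one way would be removed, and it compresses folds of dim sets.

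Of 45101 probe sets 64 controls were left out and 45037 tested with limma 3.58.1 in R 4.3.3 (lmFit, eBayes, genotype only, two-sided, 4 residual degrees of freedom, no filter), with Benjamini-Hochberg adjustment over all and a threshold of 0.05. The platform annotation gave 34945 sets 1 symbol, 932 several (not named) and 9160 none. Symbols were updated by Entrez identifier through RefSeq (GRCm38.p6); 204 sets found no match and kept their name. Ctps1 and Adss2 were matched as Ctps and Adss. A gene is its brightest set.

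Members, lists and tests were chosen with earlier results of these data known, so lists carry counts and medians and no test. Every member may be named; values per array are given for those past the threshold and otherwise for the smallest p in a role. Of each related list up to 4 genes past the threshold with the smallest p are named, others as said in the text. The fit was tested on simulated data. Alternatives were other normalizations, a filter on dim sets, array weights, a trended and robust variance prior, leaving out each array, a replicate block, other probe set rules and thresholds, and 2 marker covariates. Promoters are RefSeq's (GRCm38.p6). Figures used matplotlib 3.10.9.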

Additional observations from a re-analysis of the deposited data

How the results depend on the processing

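The count of 10 replication genes higher in Cav-3KO stood beside 1392 of all 18193 genes. With dim probe sets left out it became 16 of 46, beside 1483 of 11689 genes. A trended and robust prior gave 5, beside 1332 of 18193 genes, and array weights gave 17. Without probe sets that can match several transcripts it was 5, but Mcm7, Pole and Rnaseh2a then had no set left. The count was 2 with the skeletal muscle covariate, 0 with the luminal covariate, 20 at a threshold of 0.10 and 0 at 0.01. With each array left out it ranged from 0 to 20. It was 11 with cyclic loess, 10 with renewed quantile normalization and 11 with median centring, beside 1446, 1393 and 1447 of 18193 genes. With averaged probe sets it was 7. Replication genes lower numbered 0 in every one of these settings. The median of 0.70 ranged from 0.39 to 0.84 with an array left out and was 0.050 with the luminal covariate. The replicate block gave 18 genes, and 13 in place of 2 in the mitosis list. That list held 10 at a threshold of 0.10 and 1 with averaged probe sets or without sets that can match several transcripts. Where no count of all genes stands beside a setting, a change in its count cannot be read as particular to these lists. Whether replicate numbers pair the samples is not given in the titles. Deviations from the group means of same-numbered arrays correlated at −0.054, 0.19 and −0.018, and wild-type 3 correlated best with knockout 1 (0.26). With only 3 arrays centred per group, these correlations cannot decide it. In the mitosis list wild-type 2 was the lowest of the 6 arrays in 14 of 14 genes. Knockout 2 was the lowest knockout array in the same 14. With the luminal covariate 20 of 48 genes changed sign: Orc2 was 0.57, and the others were Cdc6 −0.051, Dut −0.11, E2f1 −0.14, E2f8 −0.63, Gmnn −0.43, Lig1 −0.16, Mcm10 −0.36, Mcm3 −0.043, Mcm6 −0.21, Mcm7 −0.25, Pold1 −0.33, Rfc1 −0.062, Rfc2 −0.0026, Rfc3 −0.14, Rfc4 −0.083, Rrm2 −0.13, Tk1 −0.49, Tyms −0.064 and Uhrf1 −0.62. With an array left out Orc2 ranged from −0.19 to 0.026, above 0 without wild-type 2. The causes of these changes were not tested, beyond the smaller number of arrays where 1 was left out.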
